A study of Mus musculus with 12 samples.

Results

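The genes described here are 35 members of the cell cycle and proliferation machinery, out of 23474 gene identifiers in the FPKM table of mouse epididymal white adipose tissue (eWAT, the fat pad that lies against the epididymis and testis). They were chosen by name for their textbook function, with earlier results of these data known. They include 6 subunits of the licensing helicase (Mcm2 to Mcm7), 4 genes of replication and nucleotide supply, and 3 cyclins with Cdk1. Further members are 7 mitotic kinases, passenger proteins and checkpoint proteins and 2 partners of the anaphase promoting complex. The others are 10 genes of the spindle, the kinetochore and cytokinesis, and Mki67 with Top2a. All 35 were in the table. Male C57BL/6J mice entered the study at 5 weeks of age and spent 12 weeks on the diets, so that tissue was taken at 17 weeks, with 10 mice per group. The ND group received a normal diet and the HFD group a high-fat diet. The GT group received the HFD with an ethanol extract of green tea at 0.25% (w/w), and the TJ group the HFD with Taeeumjowitang, a Korean herbal formula, at 3% (w/w). GT and TJ mice therefore shared the high-fat diet with the HFD group, and only ND mice did not. There were 3 RNA-seq libraries per group and 12 in all, which the methods trace to 3 randomly chosen mice for HFD and for TJ. For ND and GT nothing says that the libraries came from separate animals, so p-values measure the spread between these samples, which may there be technical.

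Dividing cells make these transcripts in waves. The licensing, clamp and nucleotide genes are switched on towards S phase by E2F factors, and the cyclin B, Aurora, Polo, spindle and checkpoint genes follow in G2 and M phase under the MuvB complex with B-Myb and FoxM1. Mature adipocytes do not divide, and in the fat of obese rodents the dividing cells are known to include resident macrophages, endothelial cells and adipocyte progenitors. In a bulk tissue library, fewer cells of a type and less RNA per cell cannot be told apart.

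Several libraries stood apart from their label. Protamine 1 (Prm1) and the other spermatid markers, 12 genes in all, summed to 5.60 to 18.4 FPKM in the TJ group and 19.99 to 84.9 in GT, but to 101920.0, 178 and 3027 in ND 1, ND 2 and ND 3 and to 2049, 47.8 and 34.5 in HFD 1, HFD 2 and HFD 3. ND 1, ND 3 and HFD 1 thus held testis transcripts. The 10 epididymis markers summed to 14488 FPKM in ND 1 and 1275 in HFD 2, against 0.253 to 13.98 in the other 10 libraries. ND 1 was also the lowest library for Adipoq, the adipocyte hormone adiponectin, at 202 FPKM against 908 to 3738 elsewhere. The approximate depth was 9.77M to 16.2M fragments per ND library, 14.1M to 18.6M in HFD, 15.5M to 19.5M in GT and 16.2M to 17.0M in TJ, with ND 1 the shallowest. Germ cells are known to express division genes. For the 35 members, counts and medians are given below with all libraries and with ND 1, ND 3, HFD 1 or HFD 2 left out. No HFD against ND fit left out all of these. The counts and medians of other cell cycle genes and of cell type markers are given with all libraries only.

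The members were low to moderate in level in HFD eWAT, from a mean of 1.54 FPKM for Cenpf to 90.7 FPKM for Pcna. Each member was expressed in each library as a percentage of its own HFD mean, and the median over the 35 members was then taken. These medians were 114, 88.8 and 96.4% in HFD 1, HFD 2 and HFD 3, 65.7, 50.1 and 30.6% in the GT libraries in the same order, 39.1, 22.2 and 41.6% in TJ and 83.8, 16.6 and 45.2% in ND. The HFD libraries lay close together, the supplemented groups lay below them, and ND spread from the lowest value of all to just under the HFD libraries. ND 2, the ND library with the fewest testis and epididymis transcripts, was the lowest of all 12 libraries for 17 members and lay below every HFD library for 34 of 35. The group means ran HFD, then GT, then TJ for 33 of 35 members, and in 32 of these the TJ mean lay above ND 2. Within GT, the first library was the highest for 32 members and the third the lowest for 33, and within TJ the second library was the lowest for 31. The same libraries were thus high or low for most members, inside a group as well as between groups.

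**Figure D1:**
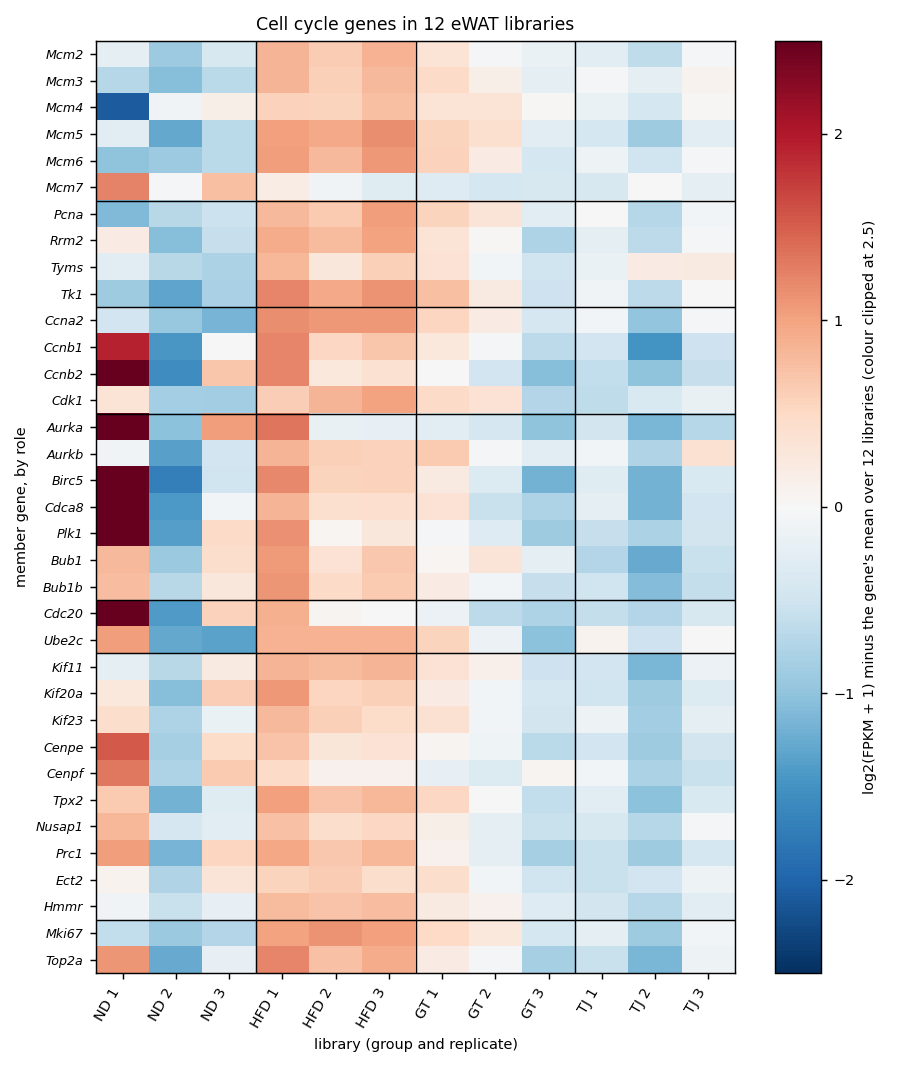
Heat map of log2(FPKM + 1) of the 35 members in 12 libraries, minus the mean of each gene over the 12 (colour, clipped at 2.5), with genes grouped by role and libraries by group and replicate. The 3 HFD columns are high in almost every line, ND 1 is the highest library for 13 members, which are Mcm7 and otherwise cyclin B and mitotic genes, and ND 2 is the lowest library for 17 members.

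Since the same libraries were high or low for most members, the windows around their transcription starts were read for the letters that E2F, the MuvB complex and NF-Y are known to bind. RefSeq (GRCm38.p6) windows of 250 bases before and 50 bases after the start were available for 30 members, in 33 windows, and the remaining 5, Mcm4, Ccna2, Aurkb, Kif20a and Tpx2, had none. The core of the cell cycle homology region (CHR), TTTGAA on either strand, was found in 19 of 33 windows (57.6%), against 17.9% of the 32817 windows of all genes. A strict E2F word (TTTCCCGC, TTTCGCGC, TTTGCCGC or TTTGGCGC on either strand) was in 5 windows (15.2%), against 2.26% of all windows, and CCAAT, bound by NF-Y, was in 29 (87.9%), against 37.4%. The E2F words fell in 4 of 6 licensing helicase windows and the CHR core in 8 of 10 windows of spindle, kinetochore and cytokinesis genes, whereas the 4 windows of replication and nucleotide supply genes held neither. These are counts of windows and not of genes, since Mcm7, Ect2 and Prc1 each had a second window, overlapping the first in Ect2 and Prc1. These matches describe letters only. Shown are Mcm6, the licensing gene called both in HFD against ND and in TJ against HFD, Mcm7, the licensing gene that did not follow the others, Cdk1, which holds all 3 motifs, Prc1, called in both GT and TJ against HFD, and Ube2c, whose HFD libraries were the most alike. The windows lie at chr1:128359656-128359955 (minus strand), chr5:138171834-138172133 (minus), chr10:69352863-69353162 (minus), chr7:80294201-80294500 (plus) and chr2:164769679-164769978 (plus). Capitals mark every match to the 3 motifs on either strand. E2F words overlap each other in Mcm6 (TTTGGCGCGAAA), an E2F word runs into CCAAT in Mcm7, and CCAAT matches on both strands overlap in Ube2c.
Mcm6: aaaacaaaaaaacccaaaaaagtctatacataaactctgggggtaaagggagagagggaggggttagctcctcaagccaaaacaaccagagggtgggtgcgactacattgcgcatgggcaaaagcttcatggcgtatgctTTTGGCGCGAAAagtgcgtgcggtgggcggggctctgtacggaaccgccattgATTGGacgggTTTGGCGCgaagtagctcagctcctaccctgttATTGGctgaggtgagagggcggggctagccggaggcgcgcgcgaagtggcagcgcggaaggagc
Mcm7: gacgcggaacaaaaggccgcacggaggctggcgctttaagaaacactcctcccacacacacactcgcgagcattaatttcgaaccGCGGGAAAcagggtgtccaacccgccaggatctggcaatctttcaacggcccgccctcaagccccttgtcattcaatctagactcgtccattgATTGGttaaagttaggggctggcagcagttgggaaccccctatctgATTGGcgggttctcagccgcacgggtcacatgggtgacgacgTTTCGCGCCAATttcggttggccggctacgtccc
Cdk1: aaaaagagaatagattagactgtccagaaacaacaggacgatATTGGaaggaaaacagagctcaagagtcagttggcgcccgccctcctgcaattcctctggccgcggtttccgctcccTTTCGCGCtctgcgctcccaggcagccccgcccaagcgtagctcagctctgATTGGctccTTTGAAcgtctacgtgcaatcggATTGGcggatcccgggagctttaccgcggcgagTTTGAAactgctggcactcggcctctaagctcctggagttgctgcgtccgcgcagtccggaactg
Prc1: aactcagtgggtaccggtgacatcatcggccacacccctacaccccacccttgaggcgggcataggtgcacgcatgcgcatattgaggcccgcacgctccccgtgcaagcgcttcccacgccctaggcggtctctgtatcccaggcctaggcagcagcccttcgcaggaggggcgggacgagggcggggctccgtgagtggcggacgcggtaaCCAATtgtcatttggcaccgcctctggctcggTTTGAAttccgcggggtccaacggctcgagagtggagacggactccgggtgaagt
Ube2c: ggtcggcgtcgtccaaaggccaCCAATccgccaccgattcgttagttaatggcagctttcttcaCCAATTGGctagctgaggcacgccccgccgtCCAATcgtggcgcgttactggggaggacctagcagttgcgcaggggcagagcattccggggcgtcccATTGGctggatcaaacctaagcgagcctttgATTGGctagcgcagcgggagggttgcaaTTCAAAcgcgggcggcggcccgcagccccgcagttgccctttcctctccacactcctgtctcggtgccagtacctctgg

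In what follows FPKM values are given by replicate (1, 2, 3), and a log2 fold change is limma's difference of log2(FPKM + 1) ± SE, which understates the change of low genes. A gene was called where the fold change was at least 1.5 and the p-value, adjusted by Benjamini and Hochberg over all genes tested, was under 0.05. The comparisons of HFD with ND, of GT with HFD and of TJ with HFD share the 3 HFD libraries and are not independent of each other.

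The MCM2-7 ring is loaded on origins in G1 and unwinds DNA in S phase. Mcm6 stood at 4.48, 4.83 and 5.86 FPKM in ND, 21.7, 18.2 and 22.2 in HFD, 15.4, 11.7 and 7.12 in GT and 9.07, 6.80 and 9.58 in TJ. All HFD libraries were above all others, and every TJ library was above every ND library. The log2 fold change was -1.20 ± 0.16 for TJ against HFD (adjusted p = 0.0196) and 1.84 ± 0.27 for HFD against ND (adjusted p = 0.0386). Mcm3 had the same layout at a lower level, with 4.40, 3.26 and 4.56 FPKM in ND, 15.0, 12.5 and 14.7 in HFD, 11.4, 8.80 and 6.62 in GT and 7.65, 6.54 and 8.43 in TJ. Again no library of another group reached the HFD range. Mcm2 was measured at 3.33, 1.70 and 2.85 FPKM in ND, 8.07, 6.83 and 8.21 in HFD, 5.39, 3.92 and 3.52 in GT and 3.20, 2.26 and 3.98 in TJ, with GT and TJ both wholly below HFD. It was 1 of the 2 members called lower in GT, at -0.73 ± 0.16 (adjusted p = 0.0493). Mcm5 showed 3.57, 1.28 and 2.43 FPKM in ND, 10.2, 9.59 and 11.3 in HFD, 7.05, 6.28 and 3.54 in GT and 3.05, 1.96 and 3.53 in TJ. It had the largest TJ difference of the ring (-1.58 ± 0.19, adjusted p = 0.0196) and was 1 of the 2 members whose TJ libraries all lay below all GT libraries, although by the narrow gap between 3.53 and 3.54 FPKM. Mcm4 read 0.388, 4.50 and 5.52 FPKM in ND, 7.74, 7.69 and 8.92 in HFD, 6.43, 6.46 and 5.01 in GT and 4.27, 3.31 and 5.03 in TJ. Here ND 1, the library with the most testis and epididymis RNA, was the lowest of the 12.

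Mcm7 did not follow its partners. It stood at 44.4, 18.02 and 31.4 FPKM in ND, 21.1, 17.1 and 14.7 in HFD, 14.5, 13.2 and 13.7 in GT and 13.7, 18.6 and 15.6 in TJ. ND 1 and ND 3 were the highest libraries, ND 2 lay inside the HFD range, and HFD and TJ overlapped. The TJ difference was -0.13 ± 0.18 (adjusted p = 0.587), and it turned to 0.0024 without HFD 1 and to 0.11 without HFD 1 and HFD 2. The HFD difference from ND was -0.72 ± 0.40 (adjusted p = 0.494), and -0.18 between HFD 2, HFD 3 and ND 2. The Mcm7 gene shares exon bases with Ap4m1 and Cops6 on the opposite strand (7.25% and 1.45% of its exon bases in GENCODE) and hosts Mir25 and Mir93. The library kit does not mark the strand, so reads of opposite genes in shared exons cannot be told apart.

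**Figure D2:**
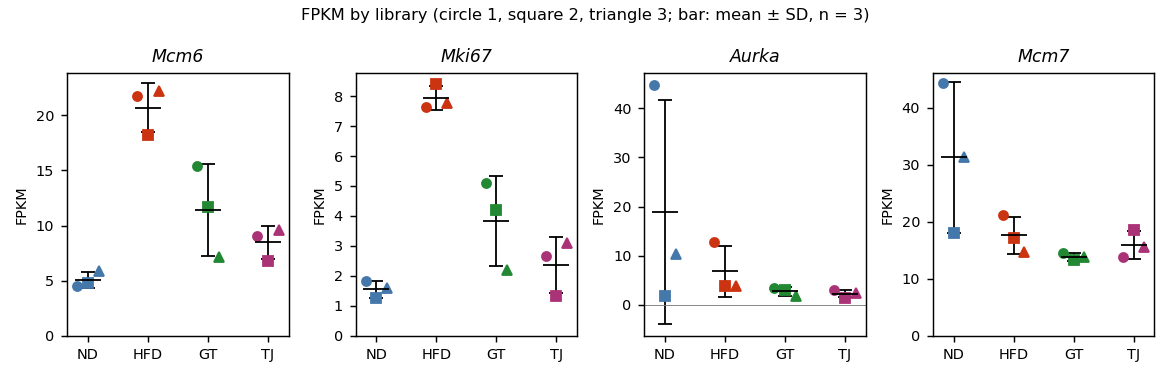
FPKM of Mcm6, Mki67, Aurka and Mcm7 by library (circle, square and triangle for replicates 1, 2 and 3), with the group mean and SD as a bar (n = 3). Mcm6 and Mki67 are separated between HFD and every other group, Aurka reaches 44.7 FPKM in ND 1 alone, and Mcm7 is highest in ND 1 and ND 3.

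PCNA is the sliding clamp of the replication fork, and its gene was the most abundant member, at 22.8, 30.7 and 34.1 FPKM in ND, 88.5, 79.2 and 104 in HFD, 74.1, 63.0 and 40.8 in GT and 50.6, 29.9 and 47.3 in TJ. The HFD libraries lay above all others, and TJ overlapped both GT and ND. Its TJ difference was -1.10 ± 0.22 (adjusted p = 0.0279). Rrm2, the regulated subunit of ribonucleotide reductase, was at 4.64, 1.34 and 2.31 FPKM in ND, 8.35, 7.46 and 8.94 in HFD, 5.25, 4.02 and 1.89 in GT and 3.22, 2.13 and 3.84 in TJ. Tk1, the salvage thymidine kinase, was at 2.89, 1.91 and 3.13 FPKM in ND, 16.0, 13.0 and 14.9 in HFD, 11.2, 7.45 and 4.09 in GT and 5.86, 3.59 and 6.23 in TJ. In both genes HFD stood clear of the other groups, and GT 3 lay below the highest TJ library. Tk1 had the largest difference of any member between HFD and ND (2.11 ± 0.29, adjusted p = 0.0348), and its mean rose from 2.64 ± 0.645 FPKM (SD, n = 3) in ND to 14.6 ± 1.52 FPKM (SD, n = 3) in HFD. Tyms, thymidylate synthase, ranged over 6.25 to 9.60 FPKM in HFD and 4.34 to 5.95 in TJ without overlap, but its difference of -0.48 ± 0.19 was not called (adjusted p = 0.104). Its GT range, 3.27 to 6.72 FPKM, overlapped HFD. Pcna, Tyms, Ccnb1 and Ccnb2 each have named pseudogenes in GENCODE that could take or lend reads, which makes their levels less certain.

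Cyclin A2 acts in S and G2 phase. Ccna2 read 2.68, 1.67 and 1.29 FPKM in ND, 10.6, 9.87 and 9.90 in HFD, 6.499, 4.95 and 2.85 in GT and 3.92, 1.60 and 4.02 in TJ. The HFD libraries differed by less than 1 FPKM and were far above the rest, and TJ 2 lay within the ND range. It was called both lower in TJ (-1.47 ± 0.26, adjusted p = 0.0248) and higher in HFD than in ND (1.98 ± 0.31, adjusted p = 0.0470). Exosc9 on the opposite strand shares 12.5% of its exon bases. Cdk1, the kinase of mitotic entry, stood at 15.2, 6.15 and 6.03 FPKM in ND, 18.8, 22.2 and 25.0 in HFD, 16.8, 15.6 and 6.73 in GT and 7.23, 8.91 and 10.3 in TJ. HFD was above all other libraries, and GT 3 was below every TJ library. Cyclin B1 (Ccnb1) was at 16.6, 0.688 and 3.69 FPKM in ND, 9.78, 5.63 and 6.51 in HFD, 4.60, 3.46 and 1.94 in GT and 2.34, 0.651 and 2.26 in TJ, with ND running from 0.688 in ND 2 to 16.6 in ND 1. It had the largest TJ difference of all members, -1.63 ± 0.33 (adjusted p = 0.0276). Cyclin B2 (Ccnb2) was at 38.9, 1.08 and 8.75 FPKM in ND, 13.1, 6.30 and 6.94 in HFD, 5.04, 3.34 and 1.91 in GT and 2.95, 2.02 and 3.08 in TJ. As for cyclin B1, ND 1 was the highest library and ND 2 among the lowest, and HFD 1, the HFD library with testis RNA, was the highest in HFD.

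Of the mitotic regulators, Birc5 (survivin) and Cdca8 (borealin) belong to the passenger complex of Aurora B. Birc5 was at 59.4, 1.18 and 4.04 FPKM in ND, 15.4, 9.49 and 9.57 in HFD, 7.32, 4.64 and 2.13 in GT and 4.80, 2.13 and 4.46 in TJ. Cdca8 was at 36.0, 1.13 and 4.48 FPKM in ND, 9.44, 6.63 and 6.73 in HFD, 6.38, 2.95 and 2.37 in GT and 3.95, 1.54 and 3.16 in TJ. In each, ND 1 was several times the highest HFD library while ND 2 was the lowest of the 12. Their TJ differences were -1.40 ± 0.29 (adjusted p = 0.0284) and -1.19 ± 0.27 (adjusted p = 0.0337). Aurkb itself ranged over 5.63 to 6.97 FPKM in HFD and 1.63 to 4.78 in TJ and was not called (-0.82 ± 0.29, adjusted p = 0.0780). Plk1, the Polo kinase of mitotic entry, read 21.1, 0.512 and 4.50 FPKM in ND, 7.62, 3.08 and 3.76 in HFD, 2.82, 2.16 and 1.11 in GT and 1.62, 1.28 and 1.87 in TJ. ND 1 was again the highest library, and no TJ library reached the HFD range. Bub1 and Bub1b hold back anaphase as part of the spindle checkpoint. Bub1 was at 3.72, 0.403 and 2.63 FPKM in ND, 4.59, 2.45 and 3.27 in HFD, 1.75, 2.33 and 1.26 in GT and 0.600, 0.119 and 0.825 in TJ. Bub1b was at 7.96, 2.23 and 5.41 FPKM in ND, 10.3, 6.31 and 7.21 in HFD, 5.07, 3.99 and 2.52 in GT and 2.72, 1.49 and 2.49 in TJ. All TJ libraries of Bub1 were below all GT libraries, and Bub1 had the lowest TJ level relative to HFD, a mean ratio of 0.150. Aurka, the centrosomal Aurora kinase, ranged over 1.70 to 44.7 FPKM in ND, 3.73 to 12.8 in HFD, 1.73 to 3.48 in GT and 1.48 to 2.98 in TJ. It was not called in TJ (-1.09 ± 0.43, adjusted p = 0.107), and HFD 1 stood at 12.8 FPKM against 3.82 and 3.73 in HFD 2 and HFD 3.

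The anaphase promoting complex ends mitosis with its activator Cdc20 and its ubiquitin-conjugating enzyme Ube2c. Cdc20 was at 54.6, 1.31 and 8.196 FPKM in ND, 10.3, 5.49 and 5.12 in HFD, 4.59, 2.89 and 2.60 in GT and 3.10, 2.72 and 3.68 in TJ. ND 1 stood far above every other library, and HFD 1 above the other HFD libraries. The TJ difference was -0.89 ± 0.26, just outside the threshold (adjusted p = 0.0510). Ube2c was at 15.3, 2.26 and 2.096 FPKM in ND, 13.3, 13.4 and 13.4 in HFD, 10.6, 6.14 and 2.86 in GT and 7.38, 4.47 and 6.83 in TJ. Its HFD libraries were almost equal, GT spread widely, and TJ lay between 4.47 and 7.38 FPKM, with a TJ difference of -1.01 ± 0.18 (adjusted p = 0.0248). Tnnc2 on the opposite strand shares 22.8% of the exon bases of Ube2c.

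Among the spindle and cytokinesis genes, Prc1, which bundles microtubules of the central spindle, was the most abundant over all libraries, at 10.1, 1.40 and 6.76 FPKM in ND, 9.45, 7.57 and 8.51 in HFD, 4.79, 3.53 and 2.03 in GT and 2.67, 1.89 and 2.94 in TJ. It was called lower in both supplemented groups, at -1.14 ± 0.23 in GT (adjusted p = 0.0482) and -1.45 ± 0.17 in TJ (adjusted p = 0.0196), and neither group overlapped HFD. Rccd1 on the opposite strand shares 11.1% of its exon bases. Tpx2, which nucleates spindle microtubules and activates Aurora A, was at 5.74, 0.879 and 2.47 FPKM in ND, 7.70, 6.01 and 6.57 in HFD, 5.08, 3.24 and 1.80 in GT and 2.57, 1.08 and 2.28 in TJ. Kif11, the motor that makes the spindle bipolar, was at 1.44, 0.785 and 2.35 FPKM in ND, 4.21, 3.98 and 4.21 in HFD, 2.69, 2.15 and 1.01 in GT and 1.06, 0.304 and 1.61 in TJ. In both, TJ 2 was the lowest TJ library and no TJ library reached the HFD range. Kif20a and Kif23 are motors of the central spindle. Kif20a was at 2.66, 0.455 and 3.67 FPKM in ND, 5.45, 3.39 and 3.57 in HFD, 2.498, 1.88 and 1.24 in GT and 1.16, 0.631 and 1.38 in TJ. Kif23 was at 3.25, 0.838 and 1.81 FPKM in ND, 4.53, 3.78 and 3.33 in HFD, 3.12, 1.99 and 1.29 in GT and 1.87, 0.735 and 1.70 in TJ. Every TJ library lay below every HFD library in both, and Kif20a shares 29.3% of its exon bases with Cdc23 on the opposite strand, whose reads cannot be told from its own there. Nusap1, a microtubule bundling protein, was at 5.59, 1.75 and 2.04 FPKM in ND, 5.15, 4.04 and 4.33 in HFD, 3.11, 2.12 and 1.504 in GT and 1.81, 1.26 and 2.56 in TJ. Ect2, the exchange factor that starts the cleavage furrow, was at 2.03, 0.700 and 2.56 FPKM in ND, 3.19, 3.46 and 2.88 in HFD, 2.89, 1.72 and 1.03 in GT and 0.951, 1.04 and 1.63 in TJ. Both lay lower in every TJ library than in every HFD library, with GT 1 of Ect2 reaching into the HFD range. Hmmr, a spindle assembly protein, was at 0.898, 0.364 and 0.732 FPKM in ND, 2.45, 2.303 and 2.42 in HFD, 1.36, 1.15 and 0.617 in GT and 0.461, 0.228 and 0.678 in TJ. The kinetochore motor Cenpe was at 6.01, 0.358 and 2.31 FPKM in ND, 2.97, 1.995 and 2.11 in HFD, 1.54, 1.24 and 0.508 in GT and 0.739, 0.297 and 0.752 in TJ. Hmmr was under 1 FPKM in all TJ and ND libraries and Cenpe in all TJ libraries. Cenpf, another kinetochore protein, ranged over 1.30 to 1.999 FPKM in HFD and 0.235 to 1.04 in TJ and was not called (-0.71 ± 0.29, adjusted p = 0.110).

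Mki67 encodes Ki-67, which coats mitotic chromosomes and is the usual stain for dividing cells. It was at 1.81, 1.25 and 1.60 FPKM in ND, 7.64, 8.41 and 7.78 in HFD, 5.10, 4.20 and 2.19 in GT and 2.65, 1.32 and 3.10 in TJ. HFD was separated from every other group, and TJ 2 lay within the ND range. Mki67 was called lower in TJ (-1.45 ± 0.23, adjusted p = 0.0230) and higher in HFD than in ND (1.81 ± 0.28, adjusted p = 0.0454), and unlike for Aurka and Plk1, ND 1 was below every HFD library. Top2a, the topoisomerase that untangles sister chromatids, was at 18.3, 2.72 and 6.77 FPKM in ND, 19.8, 13.8 and 16.0 in HFD, 9.28, 7.62 and 4.05 in GT and 5.08, 3.06 and 7.15 in TJ. ND 1 reached into the HFD range, whereas every GT and TJ library was below HFD. Its TJ difference was -1.57 ± 0.27 (adjusted p = 0.0247).

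TJ against HFD asks whether the herbal formula changed these genes in mice on the same fat diet. The members were lower in TJ in every role. Of 35 members tested 29 were called lower and 0 higher, where 11.1% of the 12807 genes tested were called lower and 7.41% higher. All 35 log2 fold changes were negative, with a median of -1.20 against -0.14 over all genes tested, and 34 members had an unadjusted p under 0.05. Median-of-ratios scaling moved the all-gene median to -0.028 and the member median to -1.09, with 29 called (1177 of 12807 genes lower). With quantile normalization 26 were called (1151 of 12807) and with 9 libraries in the fit 25 of 34 (1808 of 12340). With the replicate block 23 were called (769 of 12807). Without a filter 6 were called (184 of 20343 genes lower), and with all 12 libraries in the fit 0 members and 0 of all 13935 genes were called. All TJ libraries were below all HFD libraries for 34 members, against 31.4% of all genes, and above them for 0, against 20.1%. By role, 5 of 6 licensing genes, 3 of 4 replication genes, all 4 of Cdk1 and the cyclins, 5 of 7 kinase, passenger and checkpoint genes, 1 of 2 partners of the anaphase promoting complex, 9 of 10 spindle genes and both Mki67 and Top2a were called. The 6 that were not called were Mcm7, Tyms, Aurka, Aurkb, Cdc20 and Cenpf. Without HFD 1, HFD 2, HFD 3 or TJ 1 in turn, 0 members were called by limma, while 30, 33, 32 and 31 members had an unadjusted p under 0.05 and the medians were -1.13, -1.27, -1.20 and -1.24. None of all genes were called in these 4 fits. Without TJ 2 there were 28 calls (1226 of 12869 genes lower) and without TJ 3 29 (2167 of 12873). The smallest adjusted p of a member without HFD 1 was 0.0512. Without both HFD 1 and HFD 2, which leaves HFD 3 as the single HFD library, assumed to vary like the TJ libraries, 31 of 32 members were lower with a median of -1.18, and 0 members and 0 of all genes were called (25 members at an unadjusted p under 0.05). An exact permutation test of a single gene with 3 against 3 libraries cannot give a p below 0.1.

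**Figure D3:**
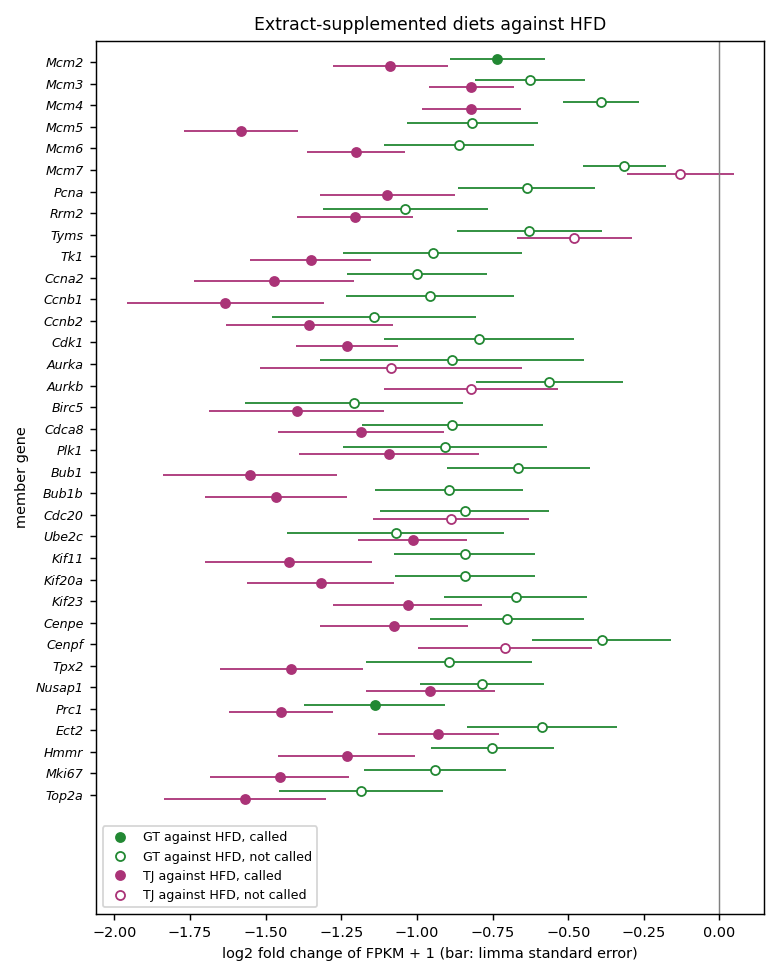
Log2 fold change of FPKM + 1 against HFD for the 35 members in GT (green) and TJ (purple), with limma's standard error as a bar and filled points for called genes. All points lie below 0, 29 are called for TJ and 2 for GT, and Mcm7 is the member nearest to 0 in both groups.

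GT against HFD asks the same of green tea extract. The members were again lower throughout, and few passed the test. Only Mcm2 and Prc1 were called lower (2 of 35, against 1.81% of the 12766 genes tested) and 0 higher (1.83% of genes), with a median log2 fold change of -0.84 against -0.12 over all genes. All 35 were negative, 30 had an unadjusted p under 0.05, and for 32 all GT libraries were below all HFD libraries, against 24.4% of genes (0 above, against 12.3%). The largest differences were -1.21 ± 0.36 for Birc5 (adjusted p = 0.0919) and -1.18 ± 0.27 for Top2a (adjusted p = 0.0559), neither of them called. The count changed with every library left out. Without GT 1 19 members were called lower (5.7% of genes in that fit), 0 were called higher (2.92%) and the median was -1.03. Without any other single library 0 were called by limma, with 23 to 27 at an unadjusted p under 0.05 and medians from -0.91 to -0.61, and few genes were called lower at all, 27 of 12374 without HFD 1 and 3 to 5 in the other 4 fits. Without HFD 1 and HFD 2 the median was -0.79, against the single library HFD 3, which was assumed to vary like the GT libraries. In that fit 0 members and 0 of all 12213 genes were called, with 6 members at an unadjusted p under 0.05.

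TJ against GT compares the supplemented diets without the HFD libraries. No member was called by limma in either direction among 32 tested (Cenpe, Cenpf and Hmmr were under the filter of a mean of 1 FPKM), and of all 12187 genes 0.139% were called higher and 0.00821% lower in TJ. The median log2 fold change of the members was -0.35, with 29 lower and 3 higher (Mcm7, Tyms and Ube2c), and 3 had an unadjusted p under 0.05. TJ libraries were all below GT for 2 members, Mcm5 and Bub1, against 14.9% of genes, and all above for 0, against 19.5%. The largest differences were -0.89 ± 0.24 for Bub1 (adjusted p = 0.124) and -0.76 ± 0.26 for Mcm5 (adjusted p = 0.152). Without GT 1 the median was -0.11 and 11 members were higher in TJ, and without GT 3 it was -0.56 with 1 higher. By limma 1 member had an unadjusted p under 0.05 without GT 1 (2273 of 12153 genes) and 0 without GT 2 (1449 of 12181). Without GT 3 it was 15 (2120 of 12225). These p-values do not show that the levels in TJ and GT are alike.

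HFD against ND asks whether the fat diet itself changed the members. Mcm6, Tk1, Ccna2 and Mki67 were called higher in HFD. Of all 35 log2 fold changes 30 were positive and 5 negative. By limma 4 of 35 were called higher (1.73% of the 14430 genes tested) and 0 lower (0.0416% of genes), with a median log2 fold change of 1.04 against 0.068 over all genes, and 14 had an unadjusted p under 0.05. All HFD libraries were above all ND libraries for 18 members, against 20.5% of genes, and below them for 0, against 5.89%. Each of the 4 was also called lower in TJ. No source says that the replicate numbers pair these libraries. With the number as a block 0 members were called by limma (12 at an unadjusted p under 0.05). Of all 14430 genes 0 were called in that fit. ND 1 was above every HFD library for 13 members and at least 3 times ND 2 for 20, mostly mitotic genes: 44.7 against 1.70 FPKM for Aurka, 54.6 against 1.31 for Cdc20 and 59.4 against 1.18 for Birc5. ND 3 was at least 3 times ND 2 for 14 members. With ND 1, ND 3 and HFD 1 left out, HFD 2 and HFD 3 were compared with ND 2. A single library thus stood for the normal diet and was assumed to vary like the HFD pair. This fit kept HFD 2 with its epididymis transcripts. In that fit 32 of 34 members were called higher (18.3% of 12516 genes) and 0 lower (7.55%), with a median of 1.71, and Aurka, Plk1 and Cdc20 turned from lower to higher. Mcm7 (-0.18) and Aurka (0.82) were not called, and Cenpf was under the filter. Without ND 1 alone 17 were called (11% of genes higher, 4.34% lower), and without any other single library 0 were called, with 8 to 13 at an unadjusted p under 0.05 and medians from 0.51 to 1.06. Of all genes 24 were called higher without ND 2, 23 without ND 3 and 0 without any single HFD library. The part of testis and epididymis RNA in the differences with all 6 libraries was not tested beyond these values.

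**Figure D4:**
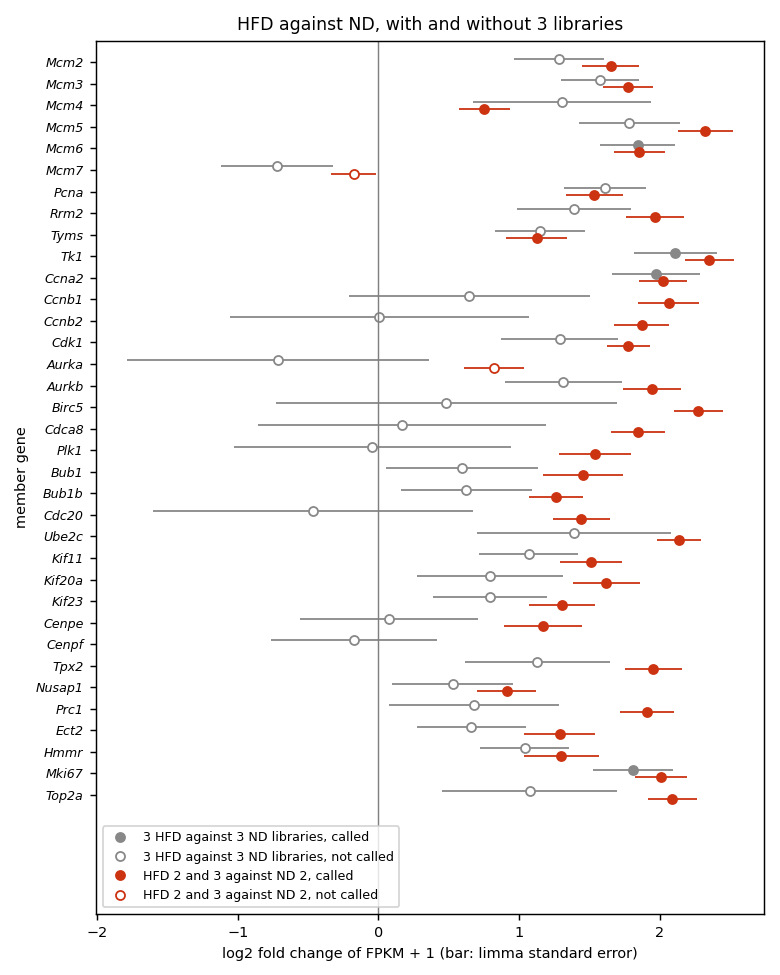
Log2 fold change of FPKM + 1 for HFD against ND with all 6 libraries (grey) and for HFD 2 and HFD 3 against ND 2 (red), with limma's standard error as a bar and filled points for called genes. With 6 libraries 4 members are called, and Ccnb2, Aurka, Birc5, Cdca8, Plk1 and Cdc20 have wide bars that span 0. With the 3 libraries the median is 1.71.

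Other cell cycle genes were taken from 4 lists of 93 genes, of which 91 were in the table. In TJ against HFD 26 of 84 tested were called lower and 3 higher, where 11.1% and 7.41% of all genes were, with a median log2 fold change of -0.55 against -0.14 over all genes. By limma 0 were called in the other comparisons, with 34 of 87 at an unadjusted p under 0.05 in GT against HFD (75 negative), 14 of 86 in HFD against ND and 7 of 76 in TJ against GT. Most of those lower in TJ belonged to mitosis (17 of 28 tested), then replication (6 of 24) and the G1 cyclins, kinases, E2F and Rb families (3 of 25, a share near that of all genes). The 4 largest called differences were in Uhrf1, Racgap1, Foxm1 and Pttg1. Foxm1, the transcription factor of G2 and M phase genes, was at 18.2, 0.970 and 10.2 FPKM in ND, 9.49, 5.41 and 4.97 in HFD, 5.39, 3.29 and 2.27 in GT and 2.11, 0.791 and 2.904 in TJ. Its TJ difference was -1.40 ± 0.34 (adjusted p = 0.0379), and ND 1 and ND 3 were above every HFD library. Uhrf1, which couples replication to DNA methylation, was at 23.0, 0.906 and 5.95 FPKM in ND, 9.35, 6.21 and 7.55 in HFD, 5.52, 3.21 and 2.04 in GT and 2.67, 1.07 and 2.52 in TJ. Racgap1, the partner of Kif23 in the centralspindlin complex, was at 9.56, 2.82 and 5.25 FPKM in ND, 13.0, 10.8 and 13.2 in HFD, 8.18, 6.64 and 4.10 in GT and 4.86, 2.38 and 4.89 in TJ. Both followed the members, with -1.53 ± 0.26 (adjusted p = 0.0247) and -1.45 ± 0.24 (adjusted p = 0.0240) in TJ. Pttg1 (securin), which holds separase in check until anaphase, went the other way, at 134, 40.6 and 32.7 FPKM in ND, 25.4, 22.6 and 16.0 in HFD, 25.6, 21.8 and 22.3 in GT and 48.6, 98.0 and 36.8 in TJ. TJ was above HFD and GT in every library (1.38 ± 0.36, adjusted p = 0.0418), and TJ 2, the lowest TJ library for 31 members, was its highest.

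The G1 cyclins did not move as a block. Ccnd3 was at 54.0, 66.5 and 74.4 FPKM in ND, 63.6, 49.2 and 43.6 in HFD, 81.2, 69.5 and 91.8 in GT and 83.3, 94.2 and 88.3 in TJ. It rose in TJ by 0.77 ± 0.17 (adjusted p = 0.0304). Ccnd1 and Ccnd2, the other D cyclins, differed by -0.37 ± 0.16 (adjusted p = 0.129) and -0.69 ± 0.35 (adjusted p = 0.177). Cyclin E2 (Ccne2) was at 1.31, 1.95 and 4.69 FPKM in ND, 3.60, 3.90 and 3.60 in HFD, 3.32, 2.80 and 1.45 in GT and 1.55, 0.908 and 1.92 in TJ and was called lower at -0.96 ± 0.21 (adjusted p = 0.0306), and Ccne1 differed by -0.33 ± 0.16 (adjusted p = 0.159). Of 7 Cdk inhibitors 0 were called by limma in TJ against HFD, 4 of them at an unadjusted p under 0.05. Cdkn1a (p21), which arrests the cycle, was nevertheless laid out like the members, at 14.1, 18.1 and 24.1 FPKM in ND, 59.4, 46.9 and 64.6 in HFD, 48.1, 35.8 and 34.97 in GT and 34.0, 17.5 and 37.9 in TJ. HFD was above ND in every library (1.57 ± 0.31, adjusted p = 0.0858) and above TJ in every library (-0.97 ± 0.29, adjusted p = 0.0557). Cdkn1c (p57) was at 11.5, 9.36 and 9.26 FPKM in ND, 12.5, 9.23 and 13.0 in HFD, 6.46, 8.21 and 8.22 in GT and 16.9, 34.8 and 18.3 in TJ, higher in every TJ library than in any other (0.89 ± 0.28, adjusted p = 0.0614). Cdkn2c was at 40.4, 55.8 and 31.6 FPKM in ND, 44.6, 40.9 and 36.6 in HFD, 43.9, 40.5 and 47.2 in GT and 60.8, 54.3 and 58.4 in TJ, and its TJ difference of 0.50 ± 0.13 had an adjusted p of 0.0419 but was under the fold threshold. Cdkn1b, Cdkn2a, Cdkn2b and Cdkn2d had TJ differences of 0.0074, 0.21, -0.080 and 0.45.

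Among markers of other cell types, those of macrophages were higher in HFD than in ND and lower in TJ than in HFD, and 7 of 10 adipocyte markers were called the other way in TJ. The 16 macrophage markers summed to 221, 852 and 678 FPKM in ND, 7548, 5622 and 7969.9 in HFD, 5521, 4509.9 and 2179 in GT and 4009.5, 1299 and 3187 in TJ. The order of the libraries inside GT and the low value of TJ 2 were the same as for the medians of the cell cycle members, whereas in ND the order was the reverse (ND 2 highest and ND 1 lowest for macrophage markers) and in HFD the highest library was HFD 3 and not HFD 1. All 16 were higher in HFD than in ND (8 called, where 1.73% of genes were called higher). All were lower in TJ than in HFD (11 called, where 11.1% of genes were called lower and 7.41% higher), with a median log2 fold change of -1.41. No gene of any kind was called in HFD against ND with the replicate block or without any single HFD library. The same held for TJ against HFD without HFD 1, HFD 2, HFD 3 or TJ 1. In GT against HFD all 16 were lower with a median of -0.91 and 0 were called (13 at an unadjusted p under 0.05), and in TJ against GT 0 were called by limma (0 at an unadjusted p under 0.05). The 8 stromal progenitor markers summed to 1033 to 1071 FPKM in HFD, 769 to 844 in GT and 792 to 1038 in TJ. Of these 3 were called lower in GT, where 1.81% of genes were, and 3 in TJ, with 7 negative in each. In HFD against ND all 8 were positive with a median of 1.30 and 0 were called by limma (2 at an unadjusted p under 0.05). Their sums in ND 1, ND 2 and ND 3 were 86.9, 1052 and 881 FPKM. ND 2 thus lay inside the HFD range, and ND 1, the library with the most testis and epididymis RNA, was far below it. The 10 adipocyte markers summed to 20240.0 to 21884 FPKM in HFD, 26859 to 32098 in GT and 32428 to 62800.0 in TJ, with 3 called higher in GT, where 1.83% of genes were and all 10 were positive, and 7 in TJ. Leptin (Lep) and lipoprotein lipase (Lpl) had negative differences in TJ and were not called, and Fabp4 alone made up 28658 of 39330 FPKM in TJ 1 and 48299 of the sum in TJ 2. The 6 endothelial markers summed to 215 to 245 FPKM in HFD and 257 to 420.4 in TJ, with 1 called higher. The 10 lymphocyte markers summed to at most 20.4 FPKM in any library, and 1 of them was at 0 in all. In TJ against HFD all 5 tested were positive with a median of 0.73, and 1 was called higher. The 6 mesothelial markers were all negative in that comparison (median -0.40, 1 called lower). The 5 blood markers tested were all positive (median 0.90), and 0 were called by limma. The part of these shifts in cell type markers in the lower levels of the members was not tested.

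**Figure D5:**
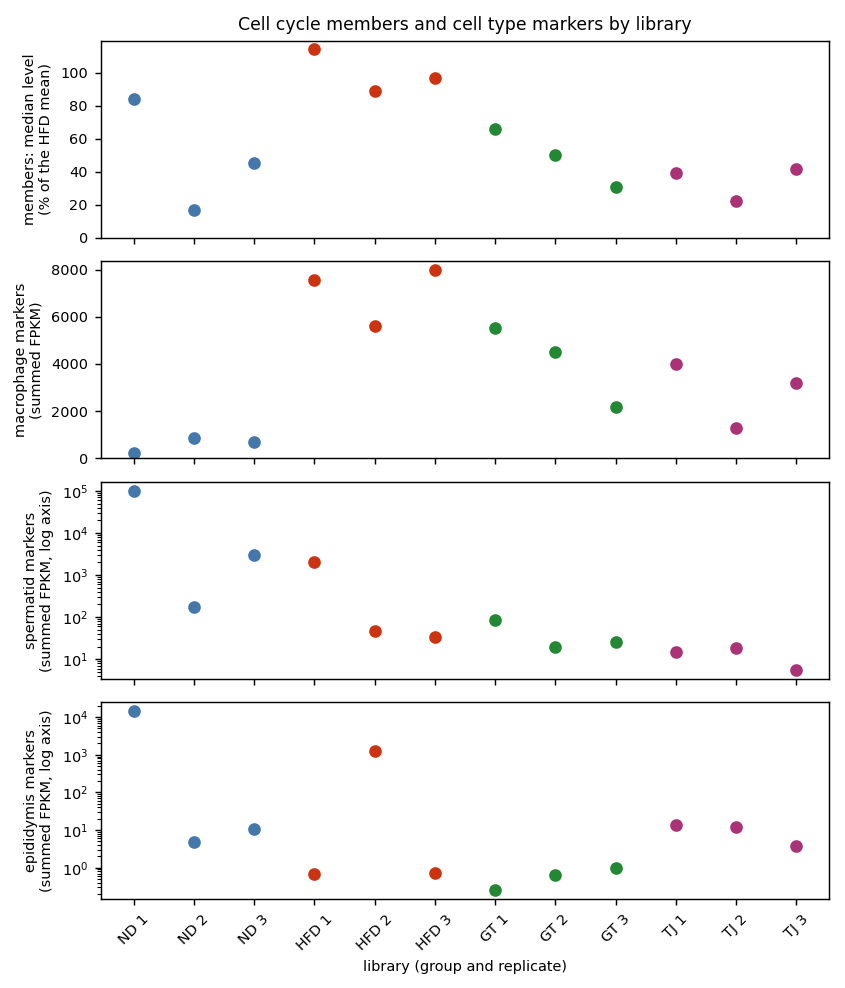
Median level of the 35 members as a percentage of the HFD mean (top) and summed FPKM of macrophage, spermatid and epididymis markers (the last pair on log axes) in each library. Members and macrophage markers are both highest in HFD, with GT 1 the highest and GT 3 the lowest GT library, spermatid markers are highest in ND 1, ND 3 and HFD 1, and epididymis markers in ND 1 and HFD 2.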

How the data were processed

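The authors sequenced TruSeq mRNA libraries of eWAT on a HiSeq, mapped the reads with STAR (2.4.0 in the submitters' processing notes) and computed the deposited FPKM values with Cufflinks 2.1.1 on Ensembl release 72, correcting for multireads and fragment bias. The genome is given as human in the methods, whereas all 23474 identifiers are mouse. GENCODE mouse release 21 (GRCm38) named 22671 of them. FPKM are not counts, so the count tool of the study was not run. Depth was estimated from the smallest steps of FPKM times transcript length, is approximate, and gives no counting interval.

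Each comparison used limma 3.58.1 in R 4.3.3 (lmFit, then eBayes with trend) on log2(FPKM + 1) of its 6 libraries, for genes averaging 1 FPKM or more, with Benjamini-Hochberg adjustment over all genes tested. The script was tested on simulated data. Samples were grouped by their titles. The methods state 3 randomly chosen mice for HFD and for TJ, and replicates of ND and GT were taken as separate samples from their labels.

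The members, gene lists and tests were chosen with earlier results of these data known. Members called in any comparison and the most abundant of each role are given by library, others by range. Of the other cell cycle lists, the 4 largest called differences per comparison, the G1 cyclins and the Cdk inhibitors are named. Alternatives were a pseudocount of 0.1, no filter or 5 FPKM, median-of-ratios scaling, quantile normalization, fits of 12 or 9 libraries, a block for the replicate number, no trend, removal of a length trend (loess, span 0.5), the libraries with testis RNA left out, and each library left out in turn. Same-numbered HFD and ND libraries correlated in their deviations from the group means at 0.547, 0.342 and 0.122, each over 0.1. The numbers were therefore treated as a possible pairing, although no source names what they share. HFD 3 and ND 2, of unlike number, correlated at 0.626, and HFD 1 and ND 1 both held testis transcripts. In the other comparisons the same-numbered libraries were not all over 0.1.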

Additional observations from a re-analysis of the deposited data

How the results depend on the processing

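Medians of the members kept their sign in all alternatives of the 4 comparisons. For HFD against ND, where 4 members were called higher, the count was 1 with a pseudocount of 0.1, 0 without a filter, 2 with a filter at 5 FPKM, median-of-ratios scaling, quantile normalization or the length trend removed, 10 with all 12 libraries in the fit (1034 of 13935 genes, against 249 of 14430), 26 with 9 libraries (1489 of 12340) and 32 with the libraries with testis RNA left out (2293 of 12516; the median was 1.71 in the last pair), and it ran from 0 to 17 over libraries left out in turn (median 0.51 to 1.31). With the replicate block it was 0. For GT against HFD, where 2 were called lower, the count was 4 with a filter at 5 FPKM, 1 with median-of-ratios scaling or quantile normalization, and 0 without a filter, with 12 or 9 libraries or with the replicate block (1 to 9 genes lower in all), without the trend (34 genes), without HFD 1, and without HFD 1 and HFD 2 (an alternative chosen after seeing the data). It ran from 0 to 19 over libraries left out. For TJ against HFD, where 29 were called lower, the count was 6 without a filter (184 of 20343 genes), 18 of 21 tested with a filter at 5 FPKM (1212 of 9300), 26 with quantile normalization, 25 with 9 libraries, 0 with 12 libraries, without HFD 1, and without HFD 1 and HFD 2 (0 genes called in these 3 fits), and 0 to 29 over libraries left out. It was 23 with the replicate block, although the numbers were not taken to pair these libraries. In TJ against GT 0 members were called in every alternative run, and the median ran from -0.56 to -0.11 over libraries left out. Over all genes, median-of-ratios scaling changed the higher and lower calls of GT against HFD from 233 and 231 to 367 and 154 (405 and 162 with quantile normalization) and those of TJ against HFD from 949 and 1417 to 1229 and 1177 (1543 and 1151). Median-of-ratios scaling moved the median of all genes from 0.068 to -0.12 in HFD against ND and from -0.14 to -0.028 in TJ against HFD (to 0.031 with quantile normalization), and quantile normalization moved that of GT against HFD from -0.12 to 0.026.

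Single members reversed as follows for HFD against ND. With 9 libraries and with testis libraries left out, Aurka was 0.82, Plk1 1.54 and Cdc20 1.44. With median-of-ratios scaling Ccnb2 was -0.19, Cdca8 -0.032 and Cenpe -0.085. With the length trend removed Cdca8 was -0.0097 and Cenpe -0.20. With a pseudocount of 0.1 Plk1 was 0.22 and Cenpf 0.023, and with quantile normalization Plk1 was 0.041. Over libraries left out in turn, members that reversed at least once ran from -0.16 to 1.53 for Ccnb1, -1.08 to 1.05 for Ccnb2, -1.74 to 0.30 for Aurka, -0.52 to 1.88 for Birc5, -0.74 to 1.31 for Cdca8, -0.999 to 0.93 for Plk1, -1.56 to 0.73 for Cdc20, -0.53 to 0.65 for Cenpe and -0.76 to 0.29 for Cenpf. In TJ against GT those that reversed ran from -0.49 to 0.071 for Rrm2, -0.063 to 0.37 for Tyms, -0.49 to 0.042 for Ccnb2, -0.53 to 0.043 for Aurkb, -0.57 to 0.14 for Birc5, -0.53 to 0.035 for Cdca8, -0.43 to 0.00088 for Plk1, -0.17 to 0.15 for Cdc20, -0.36 to 0.44 for Ube2c and -0.34 to 0.016 for Nusap1, and Ube2c was -0.062 with the length trend removed. In TJ against HFD only Mcm7 reversed, at -0.25 to 0.0024 for Mcm7 over libraries left out, at 0.0024 with 9 libraries and without HFD 1, and at 0.11 without HFD 1 and HFD 2. The cause was not tested. Low FPKM limits Hmmr, Cenpe, Cenpf and Bub1 most, and ND 1 was the shallowest library.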
